A study of Bos taurus with 12 samples.

Results

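The adipogenic and lipid storage genes described here were PPARG, CEBPA, CEBPB, FABP4, FABP5, LPL, PLIN2, G0S2, ADIPOQ and ADIRF, measured in bovine mesenchymal stem cells under 4 combinations of oxygen and TGF-β3. Of the 10 listed genes, 9 had a probe set annotated to their symbol alone, among 18010 genes so named on the array. CEBPB, an early factor of fat cell formation, is not reported here because no probe set carries its symbol alone. A gene's probe set was to be chosen by the highest mean signal over the 12 arrays, but each of the 9 measured genes had 1 probe set, so that this decided nothing. The genes were chosen with earlier results of these data known, FABP4 and G0S2 in particular, so their p-values are not independent of that choice.

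Fat cells form from marrow stromal cells when CEBPB and its partners switch on PPARG and CEBPA, a pair of transcription factors that maintain each other and turn on the genes of lipid handling. Among those genes, LPL releases fatty acids from circulating triglyceride, FABP4 and FABP5 carry them inside the cell, PLIN2 coats the lipid droplets they are stored in, and G0S2 inhibits the lipase that breaks the stored triglyceride down. ADIPOQ encodes the hormone adiponectin, and ADIRF is a factor that promotes fat cell formation in human cells. TGF-β is known as an inhibitor of fat cell formation and as an inducer of cartilage formation in marrow stromal cells.

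The cells came from the femurs and tibiae of 3 juvenile cattle, and after a first passage in atmospheric oxygen they were expanded for a week in serum-containing basal medium. The 4 groups were hypoxia (2% oxygen) with TGF-β3 at 10 ng/mL, hypoxia without TGF-β3, normoxia (21% oxygen) with TGF-β3 at 10 ng/mL, and normoxia without TGF-β3. Each group held 1 array from each of the 3 donors, and the labels name no adipogenic inducer in any of them. Values are log2 signals, so that a difference of 1 is a doubling, and differences are given with the standard error from limma, a linear model test fitted over all 26773 probe sets on the 12 arrays. A gene is said to rise or fall where its p-value, adjusted over all probe sets, was below 0.05. Unless donor is named as a block, the fit had no term for donor, although arrays of the same donor are paired. The number of arrays limits the precision.

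The array medians lay between 6.592 and 6.662 and the first quartiles between 4.889 and 4.977. Markers of marrow stromal cells bore out the labelled cell type in part: 8 of 10 lay above the array median on every array, CD44 (12.01 to 12.34) and THY1 (10.92 to 12.47) among them, while LEPR and VCAM1 lay below the first quartile on every array. Of 7 markers of mature adipocytes, ADIPOQ included, 5 (CFD, CIDEC, LEP, LIPE and PLIN4) lay below the median on every array. The haematopoietic marker PTPRC lay between 4.06 and 4.48, below the first quartile throughout, and 8 of 10 markers of haematopoietic cells lay below the median on every array. CD14 (6.63 to 7.43) and CD68 (6.84 to 7.68) lay above it on every array. Of 8 endothelial markers, 6 lay below the median on every array, CDH5 and KDR among them, while ERG lay above it throughout and PECAM1 below it on 6 arrays.

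With TGF-β3, 5 of the 9 genes changed when the 3 donors at both oxygen tensions were averaged. FABP4, FABP5, PPARG and ADIRF fell and G0S2 rose, in a comparison in which 9.64% of all probe sets were called, 4.99% lower and 4.65% higher. ADIPOQ, PLIN2, LPL and CEBPA did not pass the test, but ADIPOQ (adjusted p = 0.0195) and PLIN2 (0.00942) passed with donor as a block. At each tension alone, 3 of the 9 were called, with FABP4 and ADIRF down and G0S2 up, against 3.05% of all probe sets at 2% oxygen and 2.75% at 21% oxygen. With donor as a block the counts were 7 averaged over oxygen and 5 at each tension, against 14.8% of all probe sets averaged, 6.98% at 2% and 6.35% at 21%. The arrays with and without TGF-β3 did not overlap for 3 of the 9 averaged over oxygen, 6 at 2% and 7 at 21%, against 6.53%, 19.5% and 20.7% of all probe sets. The median difference of the 9 genes was -0.68 averaged over oxygen, against 0.01 over all probe sets.

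**Figure D1:**
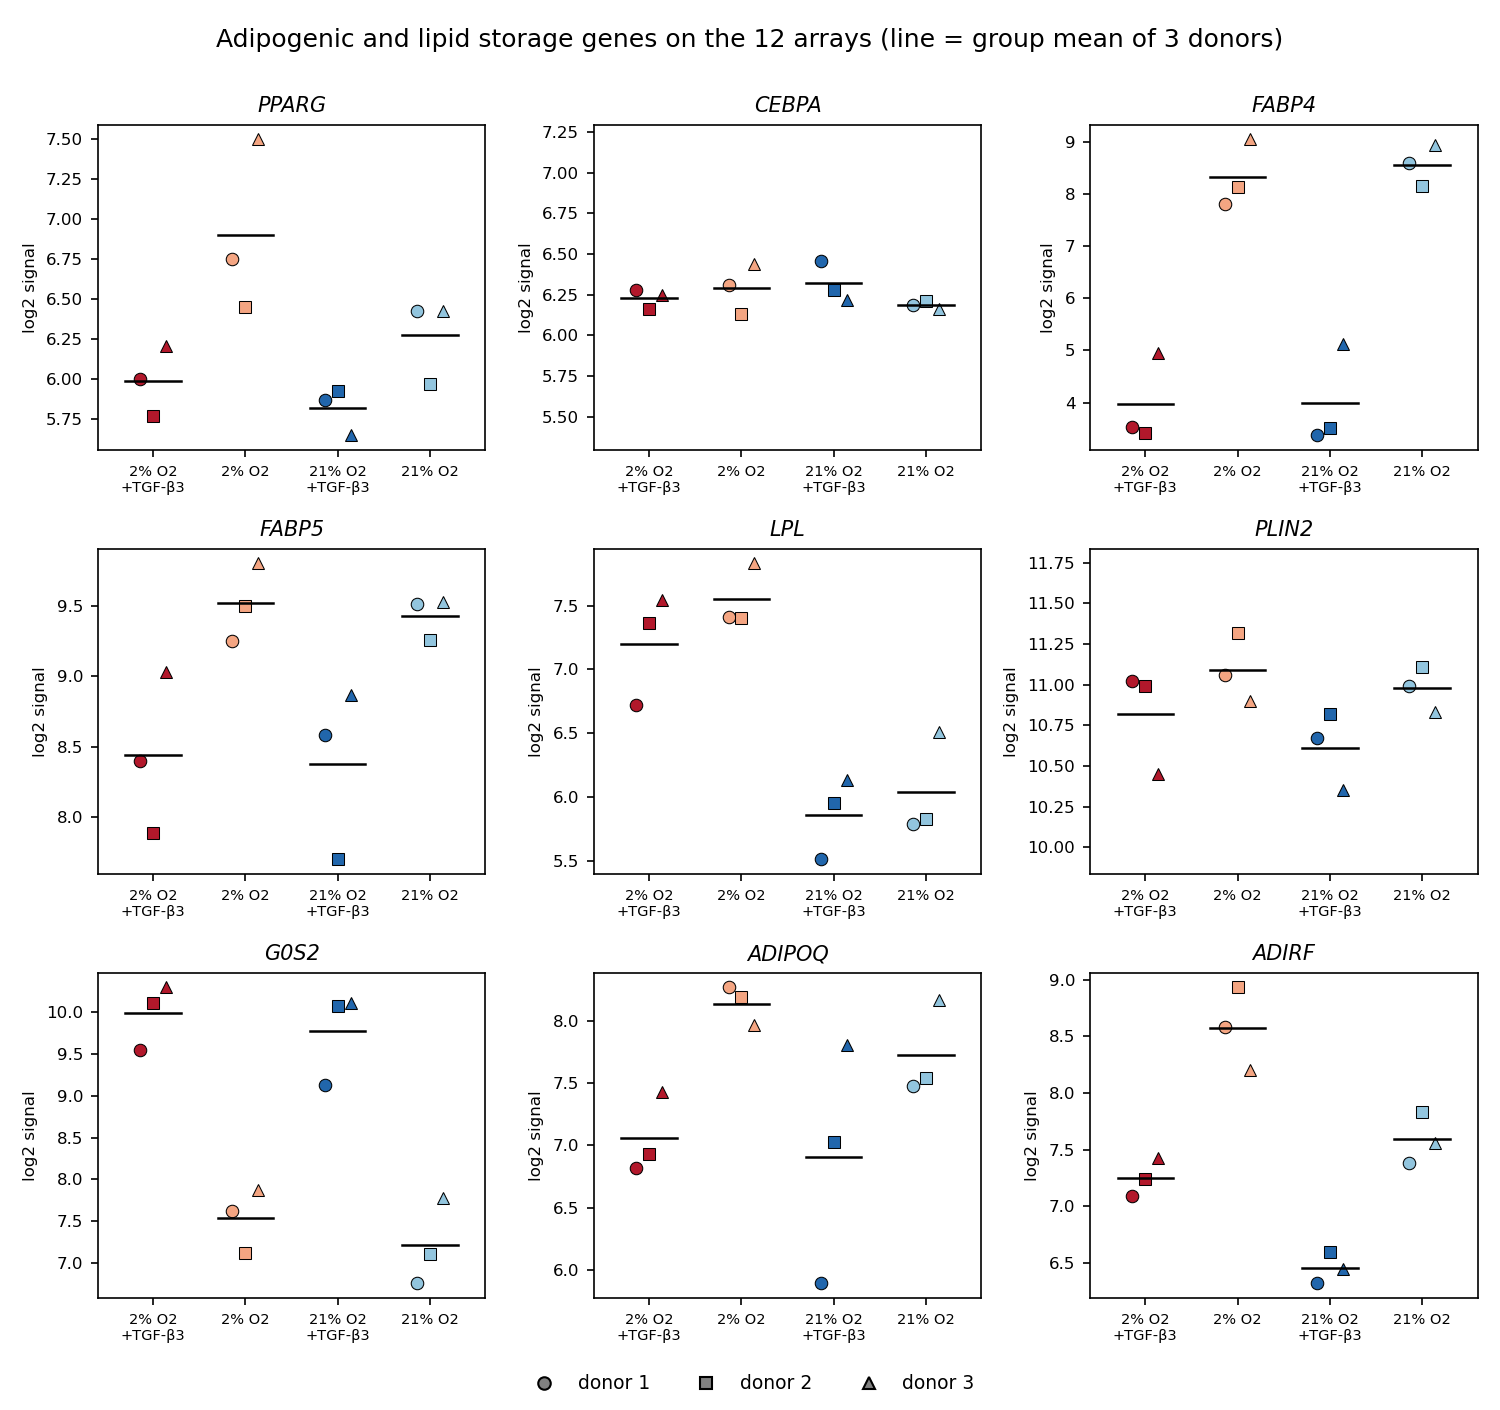
Log2 signal (vertical axis, a separate range for each gene) of the 9 measured genes in the 4 groups, with 1 point per array, the symbol giving the donor and the line the mean of 3 donors. FABP4 separates by TGF-β3 downwards and G0S2 upwards at both oxygen tensions, and LPL separates by oxygen. ADIRF separates by each treatment only within a level of the other.

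PPARG, the receptor and transcription factor at the centre of fat cell formation, had log2 signals of 6.00, 5.77 and 6.21 in donors 1, 2 and 3 in hypoxia with TGF-β3, against 6.75, 6.45 and 7.50 in hypoxia without it. In normoxia it had 5.87, 5.93 and 5.65 with TGF-β3, against 6.43, 5.97 and 6.43 without it. The groups did not overlap at either tension, although donor 2 in normoxia differed by only 0.04. PPARG lay below the array median on 10 of the 12 arrays, including every array with TGF-β3. Averaged over oxygen, PPARG fell by 0.68 ± 0.17 with TGF-β3 (1.61-fold lower, adjusted p = 0.0252), and the donors' own differences were -0.65, -0.36 and -1.04. The difference was -0.91 ± 0.24 at 2% oxygen (adjusted p = 0.0658, but 0.0275 once donor was a block) and -0.46 ± 0.24 at 21% oxygen (adjusted p = 0.41). The averaged call was lost without the normoxia arrays of donor 3 with (adjusted p = 0.0562) and without TGF-β3 (0.0661), the normoxia array of donor 1 without TGF-β3 (0.0562), or the hypoxia arrays with TGF-β3 of donors 1 (0.0542) and 2 (0.0589). It was also lost without donor 1 (adjusted p = 0.207), 2 (0.055) or 3 (0.0666), where the difference lay between -0.84 and -0.51 over these settings.

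CEBPA, the partner of PPARG in the mature fat cell, stayed between 6.13 and 6.46 on all 12 arrays. Its mean was 6.23 ± 0.06 in hypoxia with TGF-β3, 6.29 ± 0.16 in hypoxia without it, 6.32 ± 0.12 in normoxia with TGF-β3 and 6.19 ± 0.03 in normoxia without it (SD, n = 3 each). Averaged over oxygen, the TGF-β3 difference was 0.04 ± 0.07 (95% interval -0.11 to 0.19, adjusted p = 0.825), and the hypoxia difference was 0.01 ± 0.07 (95% interval -0.14 to 0.16, adjusted p = 0.995). Its signal lay below the array median on every array.

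FABP4, the fatty acid binding protein of adipocytes and a known target of PPARG, had log2 signals of 3.53, 3.42 and 4.96 in hypoxia with TGF-β3, against 7.81, 8.13 and 9.05 in hypoxia without it. In normoxia it had 3.37, 3.52 and 5.12 with TGF-β3, against 8.60, 8.15 and 8.95 without it. Every array with TGF-β3 lay below every array without it, and donor 3 was the highest in each of the 4 groups. FABP4 fell by 4.36 ± 0.52 at 2% oxygen (20.5-fold lower, adjusted p = 0.00139) and by 4.57 ± 0.52 at 21% oxygen (23.7-fold lower, adjusted p = 0.00116). It was the second-largest of the 1337 falls called averaged over oxygen (-4.46 ± 0.37, adjusted p = 4.05e-05). The arrays of donors 1 and 2 with TGF-β3 lay below the first quartile of their array, and whether they exceed background was not tested, so the folds are ratios of the measured signals. At each tension the call was lost without donor 1 (adjusted p = 0.0657 at 2% and 0.0773 at 21%) or donor 2 (0.0944 and 0.083), while the averaged call held in every alternative that tested the gene. Without donor 1 or 2 the FABP4 difference lay between -4.4 and -4.19 at 2% and between -4.53 and -4.24 at 21%. Calls over all probe sets dropped in the same fits, from 817 to 116 and 49 at 2%, and from 736 to 95 and 29 at 21%.

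FABP5, a second fatty acid carrier found in many cell types, had log2 signals of 8.40, 7.89 and 9.03 in hypoxia with TGF-β3, against 9.25, 9.50 and 9.80 in hypoxia without it. The normoxia values were 8.58, 7.70 and 8.87 with TGF-β3, against 9.51, 9.26 and 9.53 without it. Again no array with TGF-β3 reached an array without it, but the signal stayed above the array median on every array. FABP5 fell by 1.06 ± 0.22 averaged over oxygen (2.09-fold lower, adjusted p = 0.0115), and that call was lost without donor 1 (0.127) or donor 2 (0.0749). The differences at the single tensions were of like size, -1.08 ± 0.31 at 2% (adjusted p = 0.0991) and -1.05 ± 0.31 at 21% (adjusted p = 0.119), and passed with donor as a block (0.0144 and 0.0175).

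FABP4 and FABP5 belong to a cluster of fatty acid binding protein genes, in which PMP2, FABP9 and FABP12 are their neighbours in the RefSeq gene order. These 3 genes, looked up after the values of FABP4 were seen, lay below the first quartile on all 12 arrays, between 3.35 and 4.34. FABP9 was called averaged over oxygen (-0.31 ± 0.06, adjusted p = 0.0111), with 3.79 to 3.95 on arrays with TGF-β3 against 4.03 to 4.34 on arrays without it.

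G0S2, the inhibitor of adipose triglyceride lipase, moved in the opposite direction. It had log2 signals of 9.55, 10.11 and 10.29 in hypoxia with TGF-β3, against 7.62, 7.12 and 7.88 in hypoxia without it. Normoxia gave 9.13, 10.07 and 10.10 with TGF-β3, against 6.76, 7.11 and 7.78 without it. All arrays with TGF-β3 lay above all arrays without it, with donor 3 highest in each group. The rise was 2.44 ± 0.33 at 2% oxygen (5.44-fold, adjusted p = 0.00266) and 2.55 ± 0.33 at 21% oxygen (5.85-fold, adjusted p = 0.00234). Averaged over oxygen it was 2.50 ± 0.23 (5.64-fold, adjusted p = 8.02e-05), the ninth-largest of 1245 rises called. Without donor 2 the calls at the single tensions were lost (adjusted p = 0.145 at 2% and 0.135 at 21%), while the averaged call held in every alternative run.

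PLIN2, the lipid droplet coat protein found in most cell types, ranged from 10.35 to 11.32, above the array median throughout. It had 11.02, 10.99 and 10.45 in hypoxia with TGF-β3, against 11.06, 11.32 and 10.90 in hypoxia without it, and these groups overlapped. The normoxia values were 10.67, 10.82 and 10.35 with TGF-β3, against 10.99, 11.11 and 10.83 without it, and these did not overlap. The averaged difference was -0.32 ± 0.12 (adjusted p = 0.148), with the 3 donors at -0.18, -0.32 and -0.46, and it passed with donor as a block (adjusted p = 0.00942). The normoxia difference of -0.37 ± 0.18 passed only with the block too (adjusted p = 0.0457, against 0.367 without it).

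ADIPOQ, the adiponectin gene, had log2 signals of 6.82, 6.93 and 7.43 in hypoxia with TGF-β3, against 8.27, 8.19 and 7.97 in hypoxia without it. In normoxia it had 5.89, 7.03 and 7.81 with TGF-β3, against 7.48, 7.54 and 8.17 without it. The normoxia group with TGF-β3 had an SD of 0.96 over the 3 donors, the widest of the 4 groups, and overlapped the group without it. The averaged difference of -0.95 ± 0.27 missed the threshold (adjusted p = 0.0505), with -1.52, -0.88 and -0.45 in the 3 donors, and passed once donor was a block (0.0195). It also passed without donor 3 (adjusted p = 0.0236) and without either of 2 normoxia arrays with TGF-β3, that of donor 1 (0.0471) or donor 3 (0.00795). With all 12 arrays and no block it passed after quantile normalisation (adjusted p = 0.0477), with dim probe sets left out (0.0289) and with an intensity trend (0.0451). The other 13 of 20 alternatives did not call ADIPOQ, with adjusted p up to 0.299. Its signal lay above the array median on all 12 arrays but 1, that of donor 1 in normoxia with TGF-β3.

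ADIRF, the adipogenesis regulatory factor, had log2 signals of 7.09, 7.24 and 7.43 in hypoxia with TGF-β3, against 8.58, 8.93 and 8.20 in hypoxia without it. In normoxia it had 6.32, 6.60 and 6.45 with TGF-β3, against 7.38, 7.83 and 7.56 without it. ADIRF fell by 1.32 ± 0.18 with TGF-β3 at 2% oxygen (2.49-fold lower, adjusted p = 0.00279) and by 1.13 ± 0.18 at 21% (2.19-fold lower, adjusted p = 0.00749). Averaged over oxygen it fell by 1.22 ± 0.13 (adjusted p = 0.000173), a call that held in every alternative run. The calls at the single tensions were lost without donor 1 (adjusted p = 0.114 at 2% and 0.132 at 21%) or donor 2 (0.0821 and 0.0981).

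Markers of marrow stromal cells fell along with these genes: 5 of 10 were lower with TGF-β3 averaged over oxygen and none was higher, with a median difference of -0.60. Over all probe sets 4.99% were called lower and 4.65% higher. The 5 markers were CXCL12 (-1.17 ± 0.26), NT5E (-1.01 ± 0.24), PDGFRB (-0.73 ± 0.09), PDGFRA (-0.71 ± 0.13) and ENG (-0.43 ± 0.09). THY1 (-0.69 ± 0.20, adjusted p = 0.0522) passed with donor as a block (0.000558). In that fit 6 of the 10 were lower and none was higher, where 14.8% of all probe sets were called. The mean signal of the 10 stromal markers was 9.80 to 9.86 in hypoxia with TGF-β3 and 10.17 to 10.44 in hypoxia without it, and 9.65 to 9.83 in normoxia with TGF-β3 and 10.22 to 10.34 in normoxia without it. The endothelial marker PECAM1 rose by 2.12 ± 0.17, to 7.64 to 8.86 with TGF-β3 against 5.85 to 6.45 without it, the 1 of 8 endothelial markers called without the block, and the list's mean was 6.00 to 6.13 with TGF-β3 and 5.70 to 5.90 without it. ERG, another endothelial marker, had 10.32 to 10.67 with TGF-β3 against 9.51 to 10.45 without it, above the array median throughout, and its difference of 0.46 ± 0.14 (adjusted p = 0.0722) passed with donor as a block (0.0251). No marker of mature adipocytes (mean 5.97 to 6.17 with TGF-β3 and 6.11 to 6.28 without it) or of haematopoietic cells (5.43 to 5.51 with and 5.41 to 5.54 without) was called without the block, with 1 (ADIPOQ) and 0 at an unadjusted p below 0.05. With donor as a block ADIPOQ passed (adjusted p = 0.0195) and no haematopoietic marker did. The part of these shifts in the changes of the 9 genes was not tested. In bulk RNA, fewer cells of a type and less RNA per cell cannot be told apart.

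Oxygen moved fewer of the 9 genes. Averaged over the media with and without TGF-β3, LPL and ADIRF rose in hypoxia and the other 7 did not pass the test, in a comparison in which 13 probe sets (0.0486% of all) were called, 0.0448% of all higher and 0.00374% lower. One member, LPL, had hypoxia arrays that did not overlap the normoxia arrays averaged over the medium, as was so for 0.381% of all probe sets. Within a medium it was 2 with TGF-β3 and 3 without it, against 8.6% and 11.0%. LPL had the second-largest and ADIRF the fourth-largest of the 12 rises called. In the single comparisons of hypoxia, with and without TGF-β3, the fit without the block called no member. It called 0.0% and 0.00374% of all probe sets, while 2 and 3 members had an unadjusted p below 0.05, PPARG only without TGF-β3. There LPL had an unadjusted p of 0.000261 with TGF-β3 and 9.94e-05 without it, and with donor as a block it was the 1 member called in each (0.0224% and 0.0112% of all probe sets).

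LPL, lipoprotein lipase, had log2 signals of 6.72, 7.36 and 7.54 in hypoxia with TGF-β3, against 5.51, 5.95 and 6.13 in normoxia with it. Without TGF-β3 it had 7.41, 7.40 and 7.83 in hypoxia, against 5.79, 5.83 and 6.51 in normoxia. All 6 hypoxia arrays lay above all 6 normoxia arrays, and LPL was below the array median on those in normoxia. The donors' differences averaged over the medium were 1.42, 1.49 and 1.36. LPL rose by 1.42 ± 0.18 (2.68-fold, adjusted p = 0.0187, and 0.00167 with the block). The differences were 1.34 ± 0.26 with TGF-β3 (adjusted p = 0.305, and 0.0349 with the block) and 1.50 ± 0.26 without it (0.29, and 0.00741 with the block). TGF-β3 itself gave -0.26 ± 0.18 averaged over oxygen (95% interval -0.66 to 0.14, adjusted p = 0.468). The arrays of hypoxia with TGF-β3 (7.20 ± 0.43) and without it (7.55 ± 0.24) overlapped and lay above those of normoxia with it (5.86 ± 0.32) and without it (6.04 ± 0.41; SD, n = 3 each), which overlapped as well.

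The fits that left out arrays or donors did not use the block. In them the averaged call of LPL was often lost, although its size barely moved, from 1.33 to 1.46 in the settings that lost it. It was lost without the normoxia arrays of donor 1 with (adjusted p = 0.0558) and without TGF-β3 (0.0844) and of donor 2 with (0.0603) and without it (0.0633). In hypoxia it was lost without the arrays of donors 1 (0.0577) and 2 (0.0564) without TGF-β3 and of donors 2 (0.0812) and 3 (0.0503) with it. Without donor 1, 2 or 3 the adjusted p was 0.714, 0.694 or 0.0861, in fits that called 0, 0 and 2 of all probe sets.

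The rise of ADIRF in hypoxia was 0.89 ± 0.13 averaged over the medium (1.85-fold, adjusted p = 0.0426), with 0.98, 0.87 and 0.81 in donors 1, 2 and 3. Hypoxia gave 0.80 ± 0.18 with TGF-β3 (adjusted p = 0.605) and 0.98 ± 0.18 without it (adjusted p = 0.29), and in both media the 3 hypoxia arrays lay above the 3 normoxia arrays. The highest mean was that of hypoxia without TGF-β3 (8.57 ± 0.37), followed by normoxia without it (7.59 ± 0.23), hypoxia with it (7.25 ± 0.17) and normoxia with it (6.46 ± 0.14; SD, n = 3 each). The middle groups of that order overlapped, with a difference of -0.34 ± 0.18 for both treatments against neither (adjusted p = 0.415). The averaged hypoxia call was lost without any 1 array except that of donor 3 in hypoxia without TGF-β3 (adjusted p = 0.0616 to 0.155 without the others). It was also lost without donor 1 (1.0), 2 (0.463) or 3 (0.1), with equal array medians (0.0513) and after quantile normalisation (0.0525).

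The remaining 7 genes had smaller differences in hypoxia. PPARG differed by 0.40 ± 0.17 averaged over the medium (95% interval 0.03 to 0.77, adjusted p = 0.687), with 0.23, 0.16 and 0.82 in the 3 donors. Without TGF-β3 its difference was 0.63 ± 0.24 (unadjusted p = 0.0225, adjusted p = 0.896), with 0.32, 0.48 and 1.07 in the donors. Those groups did not overlap. With TGF-β3 it was 0.18 ± 0.24 (unadjusted p = 0.473), and the groups overlapped. FABP4 differed by -0.14 ± 0.37 (95% interval -0.95 to 0.67) and G0S2 by 0.27 ± 0.23 (-0.24 to 0.78), with adjusted p-values of 0.976 and 0.9. FABP5 differed by 0.07 ± 0.22, ADIPOQ by 0.28 ± 0.27, PLIN2 by 0.16 ± 0.12 and CEBPA by 0.01 ± 0.07, with adjusted p-values of 0.889 to 0.995.

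**Figure D2:**
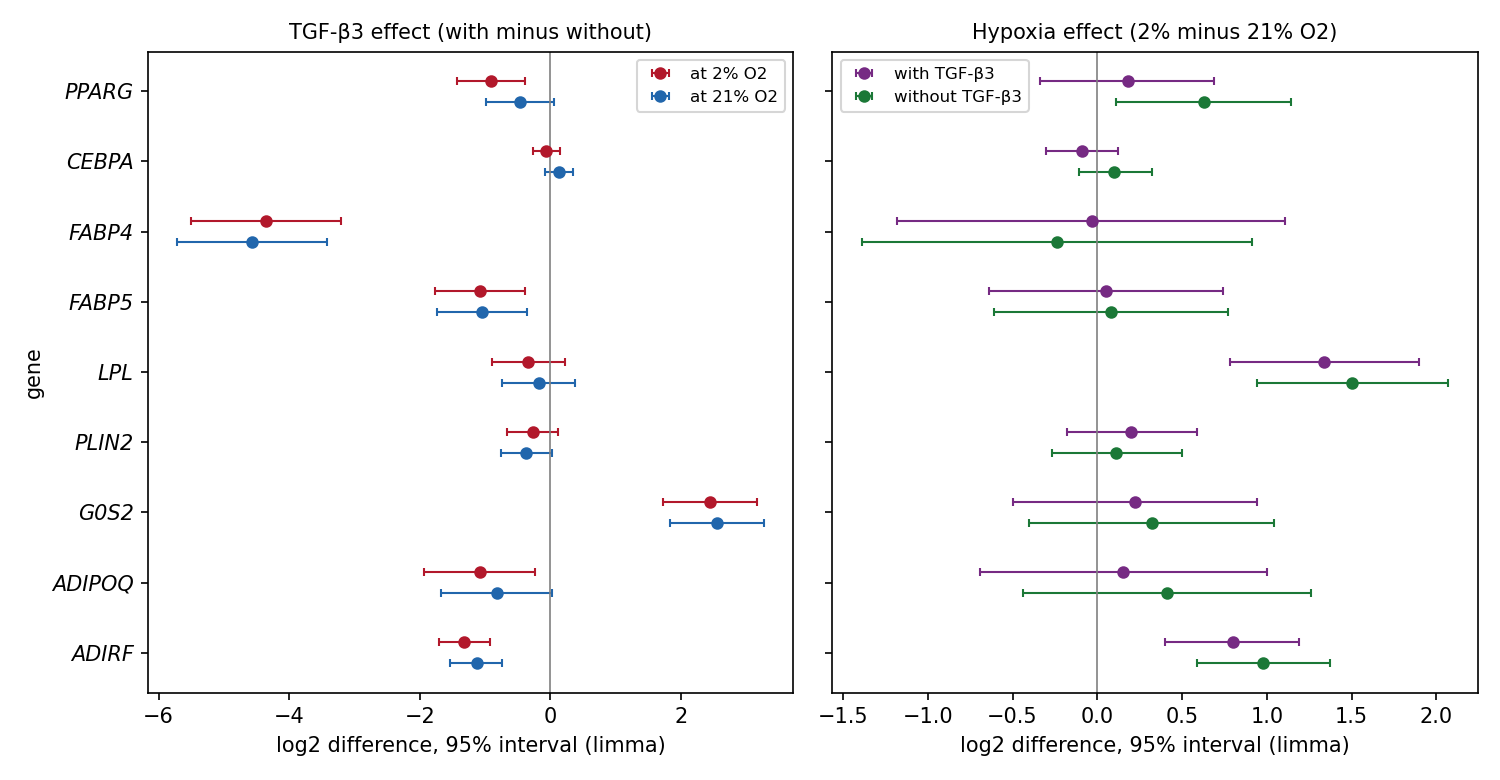
Log2 differences with 95% limma intervals (horizontal axes) of the 9 genes: left, with minus without TGF-β3 at 2% and 21% oxygen; right, hypoxia minus normoxia with and without TGF-β3. In each panel the 2 estimates of a gene have overlapping intervals, FABP4 (-4.36 and -4.57) and G0S2 (2.44 and 2.55) stand farthest from 0 on the left, and LPL (1.34 and 1.50) on the right.

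No member was called for the interaction, the difference between the TGF-β3 effects at 2% and at 21% oxygen, and neither was any other probe set (0.0% called by limma with or without donor as a block, with 1157 at an unadjusted p below 0.05 with the block and 787 without it, and 0 of the members without it). Its estimate was 0.21 for FABP4 (95% interval -1.41 to 1.83), -0.10 for G0S2 (-1.13 to 0.92), -0.18 for ADIRF (-0.74 to 0.37), -0.45 for PPARG (-1.18 to 0.28) and -0.16 for LPL (-0.96 to 0.63). These intervals leave room for differences of more than a doubling for FABP4, G0S2 and PPARG.

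Hypoxia with TGF-β3 against normoxia without it, the comparison of both treatments with neither, called 3 members against 3.74% of all probe sets. The donor block made it 4 members and 7.64%, and for 5 members the groups did not overlap, as for 22.0% of all probe sets. FABP4 fell by 4.60 ± 0.52 (24.2-fold lower, adjusted p = 0.000882), G0S2 rose by 2.77 ± 0.33 (6.81-fold, adjusted p = 0.00113) and LPL rose by 1.16 ± 0.26 (2.24-fold, adjusted p = 0.0291). ADIRF, which fell with TGF-β3 and rose in hypoxia when each was averaged over the other, differed by -0.34 ± 0.18 here. This comparison shares its arrays with the single ones and is no separate evidence. The LPL call was lost without the normoxia arrays of donors 1 (adjusted p = 0.0903) and 2 (0.123), the hypoxia arrays of donors 2 (0.0957) and 3 (0.103), donor 1 (0.0921) or donor 2 (0.382), and with only the groups compared in the fit (0.0842). Without donor 1 or 2 the call was lost for FABP4 (adjusted p = 0.0568 and 0.0638), and without donor 2 for G0S2 (0.0799).

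The donors also differed in level. Donor 3 was the highest of the 3 in all 4 groups for FABP4, FABP5, LPL and G0S2, as for 5.35% of all probe sets, and it was the lowest in all 4 groups for PLIN2, as for 6.06%. FABP4 averaged 7.02 in donor 3, against 5.83 in donor 1 and 5.81 in donor 2, and G0S2 followed the same donor although TGF-β3 moved the pair in opposite directions. After subtracting group means, FABP4 correlated with FABP5 at r = 0.79 and with PLIN2 at r = -0.88 over the 12 arrays, and LPL with G0S2 at r = 0.92. These are descriptions over arrays that share donors.

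Over the 12 arrays as they stand, which share donors and treatments, the genes most like FABP4 were ECM2 (Pearson r = 0.989), OMD (0.988) and PXN (0.986). For G0S2 they were SPSB1 (0.984), ATP6AP1L (0.981) and TRIM13 (0.98), and for FABP5 SCARB2 (0.979), S100A10 (0.97) and MALT1 (0.965). LPL, whose pattern followed oxygen, was most like GPI (0.932), BTG1 (0.91) and CNTNAP4 (0.901). The genes closest to ADIRF were ZBTB1 (0.949), IGFBP6 (0.947) and RNASE4 (0.941). ADIPOQ was closest to GRB14 (0.963), CCBE1 (0.947) and CNPY4 (0.941), and PPARG to ALOX12 (0.943), IL1RL2 (0.931) and CYGB (0.93). After group means were subtracted the closest genes were others for most members, TTC39C for FABP4 (0.99), FLAD1 for G0S2 (0.973) and EIF4E3 for LPL (0.99), while SCARB2 (0.946) was among the 3 closest to FABP5 both ways.

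The wider lipid and adipocyte programme was described with 8 lists, which held 98 measured genes that are not among the 9 members. Averaged over oxygen, 5 of the 98 rose with TGF-β3 and 12 fell, 17.3% against 9.64% of all probe sets, with a median difference of -0.02. With donor as a block 9 rose and 20 fell, where 14.8% of all probe sets were called. At the single tensions 1 rose and 5 fell at 2% oxygen, and 2 rose and 4 fell at 21%, which is 6.12% at each against 3.05% and 2.75% of all probe sets. The block moved the averaged count most for fatty acid oxidation, to 1 rise and 4 falls among 11 genes, against 0 rises and 1 fall without it. It also moved the repressors of fat cell formation to 1 rise and 3 falls, the droplet proteins to 1 and 3, lipolysis to 3 and 2, and triglyceride synthesis to 0 and 2. Hypoxia averaged over the medium called none of the 98 without the block, where 14 had an unadjusted p below 0.05 (1838 of all 26773 probe sets did), and 1 with donor as a block (0.31% of all probe sets).

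Among 19 transcription factors of fat cell formation, PPARG and CEBPA included, 1 rose and 5 fell with TGF-β3 averaged over oxygen, where 9.64% of all probe sets were called. The 4 called non-members with the largest differences are named, and a smaller fall is left unnamed. EBF1, which promotes fat cell formation in mouse cells, fell by 0.99 ± 0.11 (adjusted p = 0.000331), to 8.84 to 9.47 with TGF-β3 against 9.94 to 10.41 without it. KLF4, an early factor of the same process in mouse cells, fell by 0.75 ± 0.11 (adjusted p = 0.00171) and KLF9 by 0.68 ± 0.17 (adjusted p = 0.0287), while STAT5B rose by 0.28 ± 0.08 (adjusted p = 0.0404). Of 11 genes listed as repressors of fat cell formation, none rose and 2 fell, TWIST1 by 0.40 ± 0.10 (adjusted p = 0.0227) and SOX9, better known as the factor of cartilage formation, by 0.29 ± 0.08 (adjusted p = 0.0423). SOX9 differed by -0.54 ± 0.11 at 2% oxygen (adjusted p = 0.0268) and by -0.04 ± 0.11 at 21% (adjusted p = 0.918), and the difference between them was not called (-0.50 ± 0.16, unadjusted p = 0.00924, adjusted p = 1.0). The averaged SOX9 call was lost on leaving out any donor and most single arrays, and without donor 3 the difference was -0.17 (adjusted p = 0.355).

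Genes of lipid droplets and lipolysis moved both ways with TGF-β3 averaged over oxygen, where 9.64% of all probe sets were called. Of 13 droplet proteins, PLIN2 included, 2 fell, FITM2, which acts in droplet formation, by 0.46 ± 0.12 (adjusted p = 0.0324), and CAV1, the coat protein of caveolae, by 0.43 ± 0.07 (adjusted p = 0.00356). Among 14 genes of lipolysis and lipase control, G0S2 and LPL included, PDE3B rose by 1.06 ± 0.15 (adjusted p = 0.00148). PDE3B encodes the phosphodiesterase through which insulin restrains lipolysis, and it had 5.79 to 6.82 with TGF-β3 against 5.00 to 5.32 without it. LIPA, the acid lipase of lysosomes, fell by 0.70 ± 0.17 (adjusted p = 0.0268). Without the block, G0S2 and PDE3B were the 2 genes of that list that rose and LIPA the 1 that fell. With donor as a block 3 rose and 2 fell, and the median difference of the list was 0.06. PDE3B lay below the array median on 11 of the 12 arrays.

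CPT1A, which admits fatty acids to the mitochondrion for oxidation, had the largest difference of the non-members named. It fell by 1.60 ± 0.31 (3.03-fold lower, adjusted p = 0.00846), to 7.06 to 8.65 with TGF-β3 against 9.02 to 10.26 without it, and was the 1 of 11 genes of fatty acid oxidation called. Of 15 genes of fatty acid uptake, binding and activation, the lipoprotein receptor gene VLDLR fell by 0.71 ± 0.10 (adjusted p = 0.00113) beside FABP4 and FABP5, and the fatty acid activating enzyme gene ACSL3 rose by 0.61 ± 0.15 (adjusted p = 0.0287). AGPAT2, an acyltransferase of triglyceride synthesis, fell by 0.69 ± 0.11 (adjusted p = 0.00273), the 1 of 13 in its list called. As 9.64% of all probe sets were called, 1 call in a list of 11 or 13 genes is close to that share. Of 10 adipokine and adiponectin receptor genes, ADIPOQ included, RBP4 (0.48 ± 0.07, adjusted p = 0.00138) and RARRES2 (0.61 ± 0.16, adjusted p = 0.0394) rose.

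**Figure D3:**
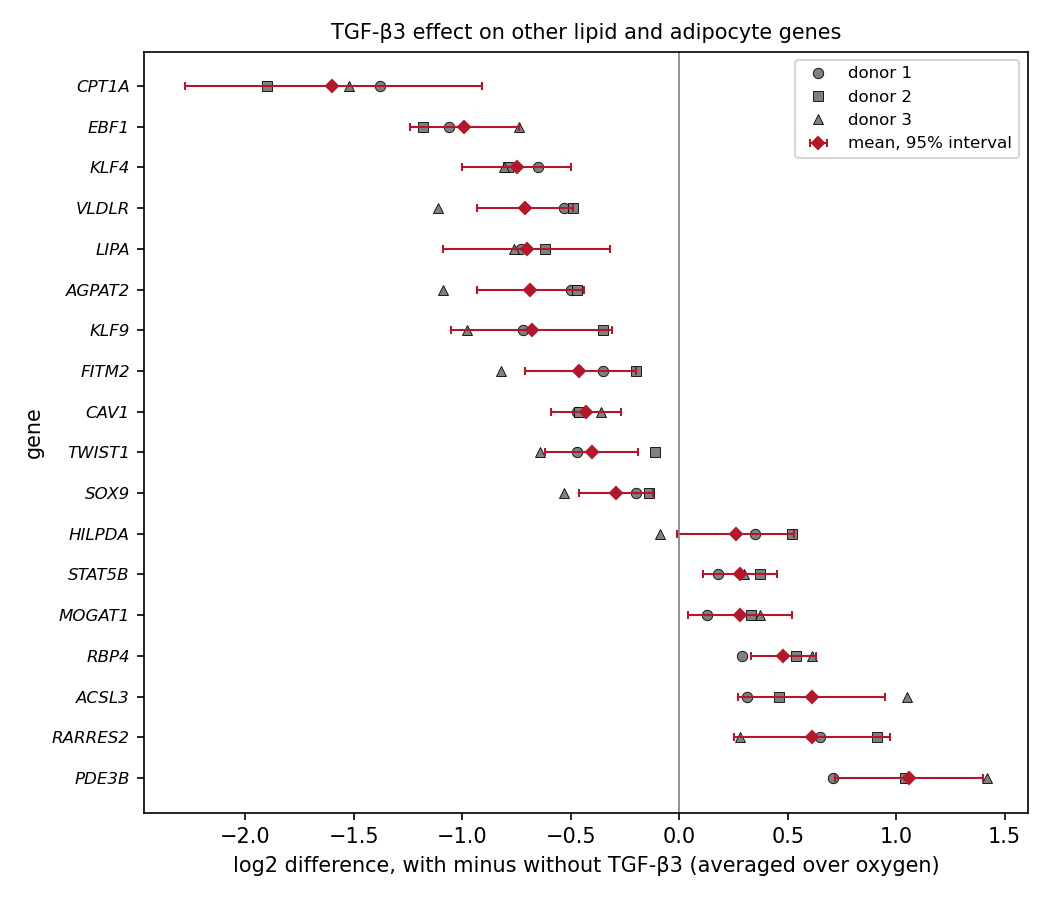
Log2 difference with minus without TGF-β3, averaged over oxygen (horizontal axis), for the 18 non-member lipid and adipocyte genes named, with grey symbols for the 3 donors and red diamonds for the mean with its 95% limma interval. CPT1A (-1.60) lies lowest and PDE3B (1.06) highest, and HILPDA and MOGAT1 did not pass the test in this comparison.

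Of the 16 named non-members called averaged over oxygen, 8 kept the call without any 1 array (AGPAT2, CAV1, CPT1A, EBF1, KLF4, PDE3B, RBP4 and VLDLR) and 3 of these without any donor (EBF1, KLF4 and VLDLR). In hypoxia with TGF-β3 against normoxia without it, 4 non-members rose and 5 fell, 9.18% against 3.74% of all probe sets. HILPDA, a droplet protein induced by hypoxia in other cells, rose by 0.72 ± 0.18 (adjusted p = 0.0466) and MOGAT1, an acyltransferase of triglyceride synthesis, by 0.68 ± 0.15 (adjusted p = 0.0331), and each lost the call in most alternatives (up to adjusted p = 0.384 and 0.34). In hypoxia averaged over the medium, HILPDA differed by 0.46 ± 0.12 (adjusted p = 0.386), RBP4 by 0.38 ± 0.07 (adjusted p = 0.105) and MOGAT1 by 0.40 ± 0.11 (adjusted p = 0.385).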

How the data were processed

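Total RNA of 12 cultures (3 donors, 4 groups) was hybridised to bovine whole-transcript arrays. The authors deposited log2 signals per probe set, normalised by robust multi-array averaging (RMA) per the labels, and the submitters' processing notes name Partek 6.6. That the scale is log2 was taken from the range of the values. RMA makes the arrays' distributions alike, so that a shift shared by all genes would not be seen. Of 26773 probe sets, 18457 carry 1 symbol in the platform annotation, 688 carry several and 7628 are unnamed here. None was named from several.

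The test was limma's moderated linear model (version 3.58.1, run in R 4.3.3) with a mean for each of the 4 groups and no other term, fitted to the 12 arrays together, which gave 8 residual and 3.14 prior degrees of freedom, and Benjamini-Hochberg adjustment over all probe sets in each of 8 comparisons (threshold 0.05). The fit was run on simulated data with independent noise for each array. They held no donor effect, so that run does not bear on the pairing. The members, the 8 lipid lists and the 4 marker lists were chosen with earlier results of these data known. Non-members were named as the up to 4 largest differences among called genes of each list and comparison, and the most alike genes as the 3 highest correlations for members with an SD of at least 0.5 over the 12 arrays.

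Donor numbers mark the same animal, so arrays are paired: deviations from group means correlated at 0.177 to 0.602 within donors (18 pairs) and at -0.44 to 0.1 between donors (36 pairs). A fit with donor as a block (6 residual degrees of freedom) was run beside the one without. Other alternatives were equal array medians, quantile normalisation, leaving out dim probe sets, an intensity trend, only the groups compared, and leaving out each array or donor. All of these were fitted without the block, so they do not use the pairing.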

Additional observations from a re-analysis of the deposited data

How the results depend on the processing

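Over the 72 values of the 9 genes in 8 comparisons, 1461 alternative values were computed. Of these, 1386 stayed on the same side of the threshold, 57 lost the call, 18 gained it and none reversed a call. The 1386 include 62 that changed sign where neither value was called. With donor as a block the members called with TGF-β3 became 5 at 2% and 5 at 21% oxygen, and 1 in hypoxia with and 1 without TGF-β3. The block moved no other count of members by over 1.5 times. In hypoxia averaged over the medium, 1 member was called with equal medians and 1 after quantile normalisation, and 0 to 2 on leaving out single arrays or donors. Leaving out 1 array or donor gave 0 to 4 at 2% oxygen, 0 to 3 at 21%, 0 to 3 for both treatments against neither and 3 to 6 for TGF-β3 averaged over oxygen. The counts of 0 in these came without donor 2, where the fit held 8 arrays, and the 3 for TGF-β3 averaged came without donor 1 or donor 2. Leaving out donor 1, 2 or 3 also lowered the counts over all probe sets, to 116, 49 and 545 at 2% oxygen. They were 95, 29 and 447 at 21%, and 826, 593 and 1609 for TGF-β3 averaged. Over all probe sets the counts with the block were 1869 (817 without it) at 2% oxygen, 1701 (736) at 21%, 2046 (1002) for both against neither, 3954 (2582) for TGF-β3 averaged, 83 (13) for hypoxia averaged, and 6 (0) and 3 (1) for hypoxia with and without TGF-β3. The filter on dim probe sets leaves out FABP4, PPARG and CEBPA, so their calls have no value there. Calls of the 98 other lipid genes averaged over oxygen were 29 with the block and 5 to 17 without 1 array or donor. Another probe set per gene could not be tried because each member has 1. Detection above background was not given, which limits FABP4 with TGF-β3 most.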
